A study of Mus musculus with 16 samples.

Results

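Centrocytes were compared with centroblasts in mice whose germinal centre B cells carry a mutant Ezh2 allele. The comparison has 4 libraries of each cell type, 8 of the 16 libraries of the series, and they were chosen by the labelled genotype and sort alone. The mice were C57BL/6J and aged 3 months. They had been immunized with sheep red blood cells, and their spleens were taken at day 8. The mutants are labelled Ezh2(Y641F)fl/wt;Cγ1-cre+/-: they hold 1 conditional allele that encodes EZH2 with the Y641F change, and a Cre driven from the immunoglobulin gamma 1 constant region, which acts in B cells that transcribe that region. Controls are labelled Cγ1-cre+/- and form another 4 centroblast and 4 centrocyte libraries, so every group carries the Cre. The share of cells in which the allele had recombined was not measured here, and the gene counts do not tell the alleles of Ezh2 apart. Every sample was sorted as B220+ FAS+ CD38-, centroblasts then as CXCR4+ CD86- and centrocytes as CXCR4- CD86+. The series describes the replicates as biological, but no label ties a library to a mouse and all carry the same litter label, so p-values measure the spread between these samples.

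In the germinal centre, centroblasts of the dark zone divide and mutate their antibody genes, and centrocytes of the light zone take up antigen and present it to T follicular helper cells. Cells that receive help are induced to express Myc and go back to the dark zone, while others die or leave as memory or plasma cells. EZH2 is the methyltransferase of Polycomb repressive complex 2 (PRC2), which places trimethylation on lysine 27 of histone H3, a mark of silenced genes. Changes at the tyrosine of Y641F alter the substrate preference of the enzyme and are recurrent in lymphomas of germinal centre origin.

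The 8 libraries held 35230563 to 44466911 counted reads, and 15240 of 49584 listed genes had enough counts to be tested over the 16 libraries. Levels are given as CPM, the counts of a gene scaled by the TMM-adjusted size of the library. A gene is called when its adjusted p is below 0.05 in the edgeR quasi-likelihood test, and log2 fold changes are given for centrocytes over centroblasts with the SE of the fit. By their Y-linked transcripts, libraries 1 and 2 were male and libraries 3 and 4 female in every group. The first principal component of the 8 libraries (37.2% of the variance) separated centroblasts from centrocytes, and the second (23.2%) separated libraries 1 and 2 from libraries 3 and 4. Macrophage markers summed to 50.1, 42.6, 126 and 120 CPM in mutant centroblast libraries 1 to 4 and to 100, 59.6, 392 and 399 CPM in mutant centrocyte libraries 1 to 4. Centrocyte libraries 3 and 4 thus stood apart from the other 6, and results below were recomputed without them.

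The cell types differed widely. Of the 15240 genes, 1360 were higher in mutant centrocytes (8.92%) and 1078 were lower (7.07%), together 2438. The change was at least 2-fold for 535 of the higher and 289 of the lower genes. The groups of 4 did not overlap for 3361 genes (22.1%), with centrocytes above for 1760 (11.5%) and centroblasts above for 1601 (10.5%). With an offset for GC content and transcript length the calls were 1460 higher and 1996 lower among 14774 genes, so the balance between directions turned, while the median log2 fold change of all tested genes moved from 0.02 to −0.04. Of the 2438 calls, 1461 were also made with each mutant library left out in turn, and 1603 without centrocyte libraries 3 and 4. Within the male libraries (1 and 2) 792 genes were higher and 561 lower, and within the female libraries (3 and 4) 619 and 441.

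**Figure D1:**
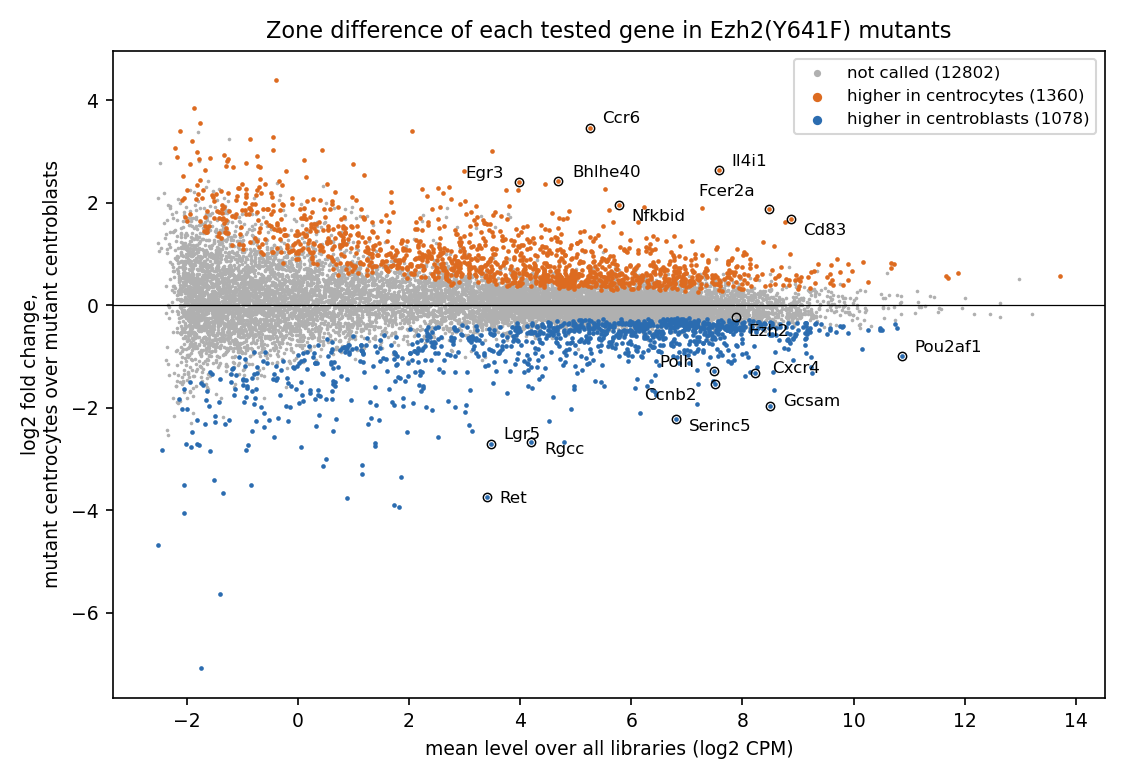
Log2 fold change of mutant centrocytes over mutant centroblasts (vertical axis) against mean level in log2 CPM over the 16 libraries (horizontal axis), one point per tested gene. Orange points are the 1360 genes called higher in centrocytes, blue points the 1078 called lower and grey points the rest; Ccr6 and Il4i1 lie far above 0 and Ret, Lgr5 and Rgcc far below it, while Ezh2 is not called.

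The sort markers followed the gates, which checks the sort and nothing more. Below, values stand in the order of libraries 1 to 4, those of centroblasts before those of centrocytes. Cxcr4, the receptor for the chemokine that draws cells to the dark zone, was at 401, 395, 379 and 429 CPM in centroblast libraries 1 to 4 and at 163, 168, 127 and 183 CPM in centrocyte libraries 1 to 4. Cd86, a costimulatory ligand for T cells, was at 138, 186, 179 and 149 CPM in centroblasts and 261, 275, 389 and 317 CPM in centrocytes. For both genes the groups did not overlap, and the log2 fold changes were −1.32 ± 0.10 and 0.93 ± 0.17. Ptprc, whose B220 form was a gate in both sorts, rose by 0.73 ± 0.18 (adjusted p = 0.00892). Fas, also a gate marker, was not called (0.17 ± 0.15, adjusted p = 0.511). Cd38, against which all cells were sorted, was at 37, 41, 66.8 and 53.5 CPM in centroblasts and 103, 106, 150.2 and 131 CPM in centrocytes, so it was higher in the latter (1.30 ± 0.22, adjusted p = 0.000539).

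Among the genes of the dark zone, 11 of 13 tested markers fell in centrocytes and none rose, where 7.07% of all tested genes fell and 8.92% rose. The list includes the gate gene Cxcr4 and shares Ccnb1, Ccnb2, Cdc20, Plk1, Aurka and Hmmr with the mitosis list. The median log2 fold change was −1.01 against 0.02 over all tested genes. Gcsam, a germinal centre signalling adaptor that limits B cell motility, was at 482, 586, 530.4 and 386 CPM in centroblasts and 126, 125, 139.9 and 117 CPM in centrocytes. The lowest centroblast library lay well above the highest centrocyte library, and the fall was 3.91-fold (−1.97 ± 0.13, adjusted p = 3.5e-08). Polh, which encodes the error-prone polymerase eta of somatic hypermutation, was at 237, 223, 227 and 242 CPM against 95.8, 94.2, 84.5 and 104 CPM and fell by 1.29 ± 0.09 on the log2 scale. Foxo1, a transcription factor of the dark zone programme, fell by 0.45 ± 0.14 (adjusted p = 0.0386), but its groups overlapped and the call was lost without any of centroblast libraries 1, 3 or 4 or centrocyte libraries 1, 2 or 3. Tcf3 (E2A) and Foxp1 were the members without a call, at −0.39 ± 0.22 and −0.31 ± 0.12.

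Among called genes whose groups did not overlap and whose mean log2 CPM was 2 or more, the largest falls were outside that list. Ret, a receptor tyrosine kinase (chr6:118151745-118197718, mm10), was at 17.5, 21.5, 18 and 22.6 CPM in centroblasts and 1.15, 1.34, 1.52 and 1.90 CPM in centrocytes, which is 13.4-fold lower (−3.75 ± 0.22, adjusted p = 1.56e-08). Rgcc, a regulator of the cell cycle, was at 15.9, 18, 17.6 and 14.9 CPM against 2.59, 3.09, 2.47 and 2.26 CPM (−2.67 ± 0.15). Lgr5, an R-spondin receptor (chr10:115450311-115587780), was at 5.35, 5.86, 5.97 and 5.90 CPM against 0.810, 1.21, 0.919 and 0.605 CPM (−2.70 ± 0.19). For all of these the highest centrocyte library was far below the lowest centroblast library. Serinc5, a membrane protein that restricts retroviruses, was at 143, 119.8, 114 and 129.7 CPM in centroblasts and 29.7, 28.2, 19.9 and 31.2 CPM in centrocytes (−2.22 ± 0.14). Further falls of more than 2 log2 units were those of Reln (−2.67 ± 0.38), an extracellular matrix protein of the developing brain, Tgfa (−2.58 ± 0.33), a ligand of the EGF receptor, Scn8a (−2.47 ± 0.25), a sodium channel, Ptgr1 (−2.27 ± 0.14), a prostaglandin reductase, and Myl4 (−2.11 ± 0.17), a myosin light chain.

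Mitosis genes fell together. Of 38 tested members 29 were lower in centrocytes and none was higher, with a median log2 fold change of −0.74. The centroblast libraries lay above the centrocyte libraries without overlap for 29 members, against 10.5% of all tested genes; Aurkb was called although its groups overlapped, and Anln was not called although they did not. The Aurkb call was lost in 6 of the 8 fits without 1 mutant library. Ccnb2, a B-type cyclin that drives entry into mitosis (chr9:70407692-70421547), was at 252, 275, 253 and 269 CPM in centroblasts and 92.7, 93.9, 87.6 and 87.7 CPM in centrocytes. Ube2c, the ubiquitin-conjugating enzyme of the anaphase-promoting complex, was at 103, 104, 112 and 126 CPM against 39.5, 45.8, 42.8 and 43.9 CPM. Cdc20, the activator of that complex, was at 237, 242, 220.2 and 290.0 CPM against 87.4, 97.6, 78.3 and 89.7 CPM. All 4 centroblast libraries were more than 2-fold above all 4 centrocyte libraries for these genes, with log2 fold changes of −1.54 ± 0.11, −1.37 ± 0.10 and −1.49 ± 0.14. Cdc25b, a phosphatase that activates mitotic cyclin-dependent kinase, fell by 1.30 ± 0.10 and Cenpa, the histone of centromeres, by 1.13 ± 0.09. Mki67, the marker of proliferating cells, was at 1610.1, 1345, 966 and 789 CPM in centroblasts and 1121, 857, 751 and 834 CPM in centrocytes, which overlapped and was not called (−0.40 ± 0.26, adjusted p = 0.336). Kif11, a spindle motor, was not called either (−0.39 ± 0.16, adjusted p = 0.121), though it was with the GC and length offset (adjusted p = 0.00277). In bulk RNA, fewer cells in mitosis and less of these transcripts per cell cannot be told apart.

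Many mitotic genes carry the cell cycle genes homology region, or CHR, bound by the DREAM and MuvB complexes near the start site. Shown are the promoters of the 3 called members with the largest falls among those whose window holds its core TTTGAA in either orientation. That all 3 hold it was therefore set by the choice. Sequences are RefSeq promoters of GRCm38.p6, from 250 bases before to 30 after the start of the gene, read 5′ to 3′ on the gene's strand, with TTTGAA or its reverse complement TTCAAA in capitals. Ccnb2 is at chr9:70421525-70421804 (minus strand), Cdc20 at chr4:118437314-118437593 (minus strand) and Ube2c at chr2:164769679-164769958 (plus strand).
Ccnb2: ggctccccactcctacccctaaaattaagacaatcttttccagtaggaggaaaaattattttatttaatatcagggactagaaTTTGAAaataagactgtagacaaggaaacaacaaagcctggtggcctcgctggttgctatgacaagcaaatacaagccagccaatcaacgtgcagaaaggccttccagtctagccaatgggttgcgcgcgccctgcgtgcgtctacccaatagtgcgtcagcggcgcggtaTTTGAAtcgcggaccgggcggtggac
Cdc20: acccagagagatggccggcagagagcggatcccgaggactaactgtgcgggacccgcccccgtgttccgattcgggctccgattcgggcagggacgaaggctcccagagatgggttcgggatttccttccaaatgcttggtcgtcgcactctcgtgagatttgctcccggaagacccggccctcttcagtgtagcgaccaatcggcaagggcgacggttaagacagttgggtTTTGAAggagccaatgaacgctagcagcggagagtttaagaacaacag
Ube2c: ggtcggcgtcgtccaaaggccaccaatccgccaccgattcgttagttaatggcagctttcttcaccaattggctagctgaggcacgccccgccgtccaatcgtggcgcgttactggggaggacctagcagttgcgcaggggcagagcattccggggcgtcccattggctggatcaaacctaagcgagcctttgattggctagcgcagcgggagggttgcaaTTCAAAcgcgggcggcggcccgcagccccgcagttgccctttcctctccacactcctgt
In Ccnb2 the letters stand 167 bases before the start and again from base 5 after it, in Cdc20 18 before it and in Ube2c 29 before it, on the opposite strand. Over the full windows of 300 bases, from 250 before to 50 after the start, either orientation occurred in 22 of the 32 mitosis members with a promoter in the table (68.8%). It occurred in 17 of 23 called members (73.9%) and 5 of 9 others (55.6%), and in 1403 of the 9643 tested genes with a promoter (14.5%). Of the DNA replication genes, 4 of 26 held it (15.4%). These letters are a description of sequence, and no binding was measured.

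**Figure D2:**
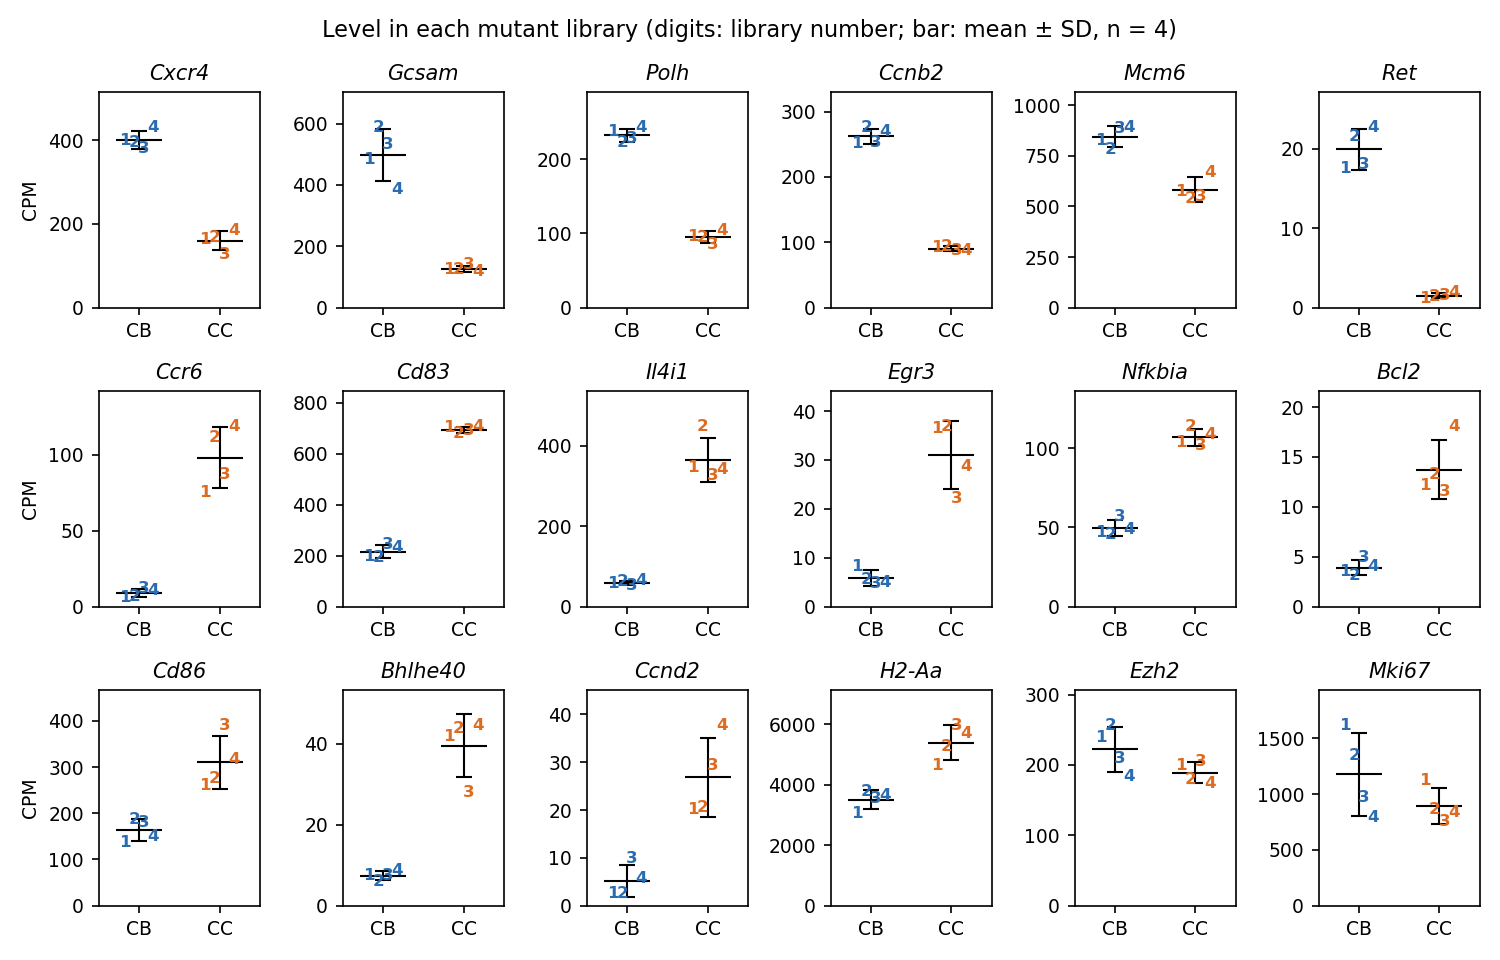
CPM of 18 genes in mutant centroblasts (CB, blue) and centrocytes (CC, orange), each digit standing for the library of that number, with the mean ± SD (n = 4) as a black bar. Cxcr4, Gcsam, Polh, Ccnb2, Mcm6 and Ret are lower in all 4 centrocyte libraries than in any centroblast library, Ccr6 to H2-Aa are higher, and Ezh2 and Mki67 overlap.

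Of 34 tested replication genes 12 were lower in centrocytes, none was higher and 22 were not called, where 7.07% of all tested genes were lower. Their median was −0.29. Mcm6, a subunit of the replicative helicase, was at 825, 781, 883 and 888 CPM in centroblasts and 575, 537, 550.0 and 669.9 CPM in centrocytes (−0.53 ± 0.10, adjusted p = 0.00181). Its groups did not overlap. Mcm2 and Mcm4, further helicase subunits, missed the threshold (−0.41 ± 0.14 and −0.29 ± 0.10, adjusted p = 0.0514 and 0.0668); Mcm2 passed with the replicate block (0.0497) and with the offset (0.00241). The lower members numbered 20 under the GC and length offset and 7 without centroblast library 4. Within libraries 1 and 2 they numbered 6, and within libraries 3 and 4 none was called.

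Cell cycle regulators of G1 were higher in 3 of 20 tested cases and lower in 2, against 8.92% and 7.07% of all tested genes. The lower count fell to 0 or 1 without any 1 mutant library. Counts this near those shares do not describe the list as a group. Ccnd2, the D-type cyclin induced by mitogens, was at 2.62, 2.52, 9.77 and 5.73 CPM in centroblasts and 20, 20.6, 29.2 and 37.6 CPM in centrocytes. The groups did not overlap, but libraries 3 and 4 were higher in each, and the log2 fold change was 2.37 ± 0.40 (adjusted p = 0.000536). Ccnd3, the D-type cyclin that dark zone division needs, was lower by 0.47 ± 0.16 with an adjusted p of 0.0492, and that call was lost with any 1 of the 8 libraries left out. Myc, the transcription factor of selected cells, was at 35.5, 23.8, 31.5 and 25.6 CPM in centroblasts and 70.1, 74, 44.7 and 57.6 CPM in centrocytes (1.08 ± 0.20, adjusted p = 0.00104), with the lowest centrocyte value in library 3. Of 25 tested cytoskeleton and migration genes 2 were higher, 6 lower and 17 not called, against 8.92% higher and 7.07% lower of all tested genes. Among tubulins, which build the spindle, Tubb4b fell by 0.98 ± 0.14, Tuba1c by 0.84 ± 0.14 and Tuba1a by 0.76 ± 0.11. Tuba1b fell by 0.49 ± 0.13 and Tubb5 by 0.44 ± 0.13. The Tuba1 genes are near-identical and reads may be split among them, the Tuba1b call was lost without centroblast library 4 or centrocyte library 1, and that of Tubb5 in 5 of the 8 fits without 1 mutant library. Both calls were also lost without centrocyte libraries 3 and 4 together (adjusted p = 0.0541 and 0.0604). Tubb6, a tubulin of low level, rose by 1.96 ± 0.55. That call was lost without centroblast library 1 or 2, and without centrocyte libraries 3 and 4 together (adjusted p = 0.104).

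Genes of hypermutation and class switching fell in 5 of 18 cases and rose in 1, against 7.07% and 8.92% of all tested genes. Beside Polh, those that fell included Apex2 (−0.50 ± 0.10), an endonuclease of abasic sites, and Lig4 (−0.85 ± 0.21), the ligase of end joining, whose call was lost without centrocyte libraries 3 and 4 (adjusted p = 0.0742). Apex1, the main endonuclease of abasic sites, rose by 0.39 ± 0.12, a call lost without centroblast library 1, 2 or 3, centrocyte library 1, 3 or 4, or centrocyte libraries 3 and 4 together.

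Light zone markers rose: 14 of 16 were higher in centrocytes, against 8.92% of all tested genes, with a median log2 fold change of 1.28; Cd86, a gate gene, is among them. Cd83, which keeps MHC class II on the cell surface (chr13:43784775-43803132), was at 195, 192, 245 and 231 CPM in centroblasts and 703, 679.9, 690.4 and 706 CPM in centrocytes. That is 3.22-fold higher (1.69 ± 0.11, adjusted p = 3.5e-08), with little spread among the centrocyte libraries. Il4i1, a secreted amino acid oxidase (chr7:44816387-44840809), was at 57.2, 61.4, 51.7 and 64.1 CPM against 345, 447, 327 and 341 CPM, 6.23-fold higher (2.64 ± 0.21). Slamf1, an adhesion receptor between B and T cells, rose from 76.6, 87.4, 96.2 and 76 to 191, 199, 215 and 198 CPM (1.26 ± 0.10). Traf1, an adaptor of TNF receptors, was not called (0.02 ± 0.09, adjusted p = 0.912). Cd44, an adhesion receptor listed here with the light zone, was lower (−0.42 ± 0.11, adjusted p = 0.0133), a call lost without centrocyte library 1.

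The largest rise under the same rule was that of Ccr6, a chemokine receptor found on light zone cells that become memory B cells (chr17:8236043-8257141). It was at 6.09, 7.01, 11.7 and 10.7 CPM in centroblast libraries 1 to 4 and 75.3, 111, 87.2 and 118 CPM in centrocyte libraries 1 to 4. Every centrocyte library was at least 6-fold above every centroblast library, and the fitted change was 11-fold (3.46 ± 0.23, adjusted p = 3.73e-08). Rec8, a meiotic cohesin, rose by 3.40 ± 0.28, Shank1, a scaffold of synapses, by 3.02 ± 0.26, and Ppfia4, a liprin, by 2.62 ± 0.21. Bhlhe40, a transcriptional repressor, was at 7.56, 5.92, 7.58 and 8.60 CPM in centroblasts and 41.8, 43.8, 28 and 44.4 CPM in centrocytes (2.41 ± 0.16), with centrocyte library 3 below the other 3. Further rises of this size were those of Gdf11 (2.19 ± 0.28), a TGF-beta family ligand, Lifr (2.27 ± 0.25), a cytokine receptor, Ckb (2.31 ± 0.28), a creatine kinase, Cfp (2.27 ± 0.26), the complement protein properdin, and Fcgrt (2.29 ± 0.32), the neonatal Fc receptor. Cfp was at 12.9, 13.3, 23.7 and 24 CPM in centroblasts and 68.8, 67.6, 118 and 102 CPM in centrocytes and Fcgrt at 1.63, 1.84, 3.69 and 3.09 CPM against 8.88, 11.2, 15.4 and 14.5 CPM. Both were higher in libraries 3 and 4 of each cell type, as were the macrophage markers; without centrocyte libraries 3 and 4 both were still called (adjusted p = 0.000418 and 0.00297).

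Genes induced within minutes of antigen receptor signalling were called more in the upward direction. Of 24 tested immediate early genes 10 were higher and 2 lower, against 8.92% and 7.07% of all tested genes, with a median of 0.57. Egr3, a zinc finger factor, was at 8.19, 5.59, 4.76 and 4.90 CPM in centroblasts and 36.4, 36.7, 22.2 and 28.7 CPM in centrocytes (2.40 ± 0.22, adjusted p = 9.01e-07). Nr4a1, the nuclear receptor used as a reporter of B cell receptor signalling, was at 15.2, 9.42, 8.49 and 12.6 CPM against 44.6, 47.1, 28.5 and 38.7 CPM (1.80 ± 0.19). In both genes centroblast library 1 was the highest of its group and centrocyte library 3 the lowest of its own, without overlap. Egr1 rose by 1.4 ± 0.18 and Egr2 by 1.94 ± 0.21. Fos and Jun, which form AP-1, were not called (0.36 ± 0.56 and 0.58 ± 0.46, adjusted p = 0.732 and 0.44). Atf3, a stress-induced repressor of the same list, went the other way: it was at 5.96, 5.01, 4.44 and 5.35 CPM in centroblasts and 0.392, 0.940, 1.21 and 0.684 CPM in centrocytes (−2.69 ± 0.27, adjusted p = 2.69e-06). Dusp5, a phosphatase of ERK, fell too (−0.73 ± 0.12).

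NF-kB relays signals of CD40 and the B cell receptor and induces its own inhibitors. Of 14 tested subunits and inhibitors 9 were higher in centrocytes, against 8.92% of all tested genes. None was lower, and the median was 0.80. Nfkbid, an atypical inhibitor that acts in the nucleus (chr7:30421732-30428746), was at 30.5, 23.3, 21.8 and 21.7 CPM in centroblasts and 113, 112, 76.4 and 76.7 CPM in centrocytes, 3.89-fold higher (1.96 ± 0.18, adjusted p = 8.31e-07), with libraries 1 and 2 above 3 and 4 in centrocytes. Nfkbia, the classical inhibitor, was at 46.6, 45.8, 56.7 and 48.6 CPM against 104, 113, 102 and 108 CPM (1.11 ± 0.15, adjusted p = 6.95e-05), with all centrocyte libraries near the same level. Tnfaip3 (A20), a ubiquitin-editing brake, rose by 0.91 ± 0.11. The subunits Nfkb2, Relb and Rel rose by 0.88 ± 0.21, 0.90 ± 0.17 and 0.65 ± 0.18. The Rel call was lost without centroblast library 2, without centrocyte library 1, and without centrocyte libraries 3 and 4 together (adjusted p = 0.0542). Nfkb1 and Rela, the subunits of the classical dimer, were not called (0.19 ± 0.10 and 0.05 ± 0.15, adjusted p = 0.199 and 0.874).

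The promoters of Nfkbid and Nfkbia are printed because both genes rose and both hold the kB motif, the site that NF-kB binds; they were picked, and this list searched, after the values were seen. The motif was searched on both strands and its match is in capitals. Nfkbid is at chr7:30422156-30422435 (plus strand) and Nfkbia at chr12:55492618-55492897 (minus strand), both from RefSeq, GRCm38.p6. Among the 3 promoter windows of Nfkbid, only that shown held this form.
Nfkbid: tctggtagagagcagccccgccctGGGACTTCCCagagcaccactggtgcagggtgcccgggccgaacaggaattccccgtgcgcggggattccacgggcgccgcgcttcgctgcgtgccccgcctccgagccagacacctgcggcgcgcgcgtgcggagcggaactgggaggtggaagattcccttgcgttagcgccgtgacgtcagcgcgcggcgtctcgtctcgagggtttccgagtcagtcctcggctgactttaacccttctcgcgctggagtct
Nfkbia: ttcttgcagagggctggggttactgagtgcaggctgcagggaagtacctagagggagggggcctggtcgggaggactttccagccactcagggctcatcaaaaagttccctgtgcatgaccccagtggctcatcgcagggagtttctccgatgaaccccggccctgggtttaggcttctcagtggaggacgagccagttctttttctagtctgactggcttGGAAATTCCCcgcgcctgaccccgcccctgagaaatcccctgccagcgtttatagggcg
In windows of 300 bases, this form was in 7 of 11 NF-kB subunits and inhibitors with a promoter sequence (63.6%). Of these, 5 of 7 called members and 2 of 4 not called held it. Over all tested genes it was in 158 of 9643 (1.64%). It was in 0 of 21 CD40 and NF-kB targets, which says only that these letters are not in those windows.

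Those CD40 and NF-kB targets rose in 15 of 22 cases and fell in 1, against 8.92% and 7.07% of all tested genes. Their median was 0.60, and within libraries 3 and 4 alone 9 were higher. Tnf, the cytokine, was at 26.1, 25.7, 22.1 and 27.4 CPM in centroblasts and 59.4, 80.7, 52.4 and 48.7 CPM in centrocytes (1.25 ± 0.14). Ebi3, a cytokine subunit, rose by 1.44 ± 0.20, and Irf4, a factor induced by CD40 and needed for plasma cells, was at 32.8, 29.4, 44.3 and 48.7 CPM against 85.1, 81.3, 67.4 and 103 CPM (1.12 ± 0.19). Neither Tnf nor Irf4 overlapped between the cell types. Ccl22, a chemokine that attracts T cells, was near 0, with 0.0787, 0, 0 and 0.276 CPM in centroblasts and 0.810, 0.242, 0.775 and 1.63 CPM in centrocytes; its call (adjusted p = 0.0403) was lost in 6 of the 8 fits without 1 mutant library and in DESeq2 (0.0860). Gadd45b, an inhibitor of stress kinases, was lower (−0.54 ± 0.14), but not without centrocyte libraries 3 and 4 (adjusted p = 0.16).

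Surface receptors for T cell help rose in 11 of 22 cases and fell in 1, against 8.92% and 7.07% of all tested genes. Cd40, the receptor for CD40 ligand, was at 45, 57.1, 54.7 and 60.7 CPM in centroblasts and 99.1, 115, 117 and 109.8 CPM in centrocytes, 2.03-fold higher (1.02 ± 0.12, adjusted p = 1.3e-05). Il2rg, the common cytokine receptor chain, rose by 0.83 ± 0.09, Icosl, the ligand of ICOS, by 0.68 ± 0.11, and Tnfrsf14 (HVEM), the partner of BTLA, by 0.83 ± 0.13. Slamf6, an adhesion receptor, fell by 0.47 ± 0.15 with overlap between the groups, and lost its call without centroblast library 1, 2 or 3 or centrocyte library 1, 2 or 4. With the replicate block 14 of the 22 were higher, Btla among them (adjusted p = 0.0434 against 0.0729).

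Antigen presentation by MHC class II was higher in 10 of 12 genes, against 8.92% of all tested genes, with a median of 0.57. H2-Aa, an alpha chain of MHC class II, was at 3046, 3772, 3557 and 3633 CPM in centroblasts and 4642, 5253, 5943 and 5709 CPM in centrocytes (0.62 ± 0.12, adjusted p = 0.00129). Ifi30, the thiol reductase that unfolds antigen, was at 229, 252, 270.4 and 279 CPM against 479, 625, 589 and 609 CPM (1.16 ± 0.14). The transcriptional activator Ciita rose by 0.66 ± 0.13 and H2-Oa, a modulator of peptide loading, by 0.87 ± 0.17. Ctss, a protease of the pathway, and H2-DMa were not called (adjusted p = 0.225 and 0.124). Macrophages express these genes too, and their markers were highest in centrocyte libraries 3 and 4; without those libraries 9 of the 12 were called higher, with a median of 0.56. Within libraries 1 and 2 alone 6 were called higher, and within libraries 3 and 4 alone 3.

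B cell receptor components were higher in 7 of 24 cases and lower in 1, against 8.92% and 7.07% of all tested genes. Cd72, an inhibitory coreceptor, was at 246, 214, 187 and 219 CPM in centroblasts and 579, 569.9, 454 and 438 CPM in centrocytes (1.24 ± 0.12). Cd22, another inhibitory coreceptor, rose by 0.82 ± 0.09, and Cr2, the complement receptor of B cells, rose from 335, 379, 349 and 309 to 640.8, 642, 734 and 739 CPM (1.01 ± 0.18). Cd79b, a signalling chain of the receptor, was not called (−0.15 ± 0.12, adjusted p = 0.442), and the kinase Syk was lower (−0.49 ± 0.11, adjusted p = 0.00382).

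**Figure D3:**
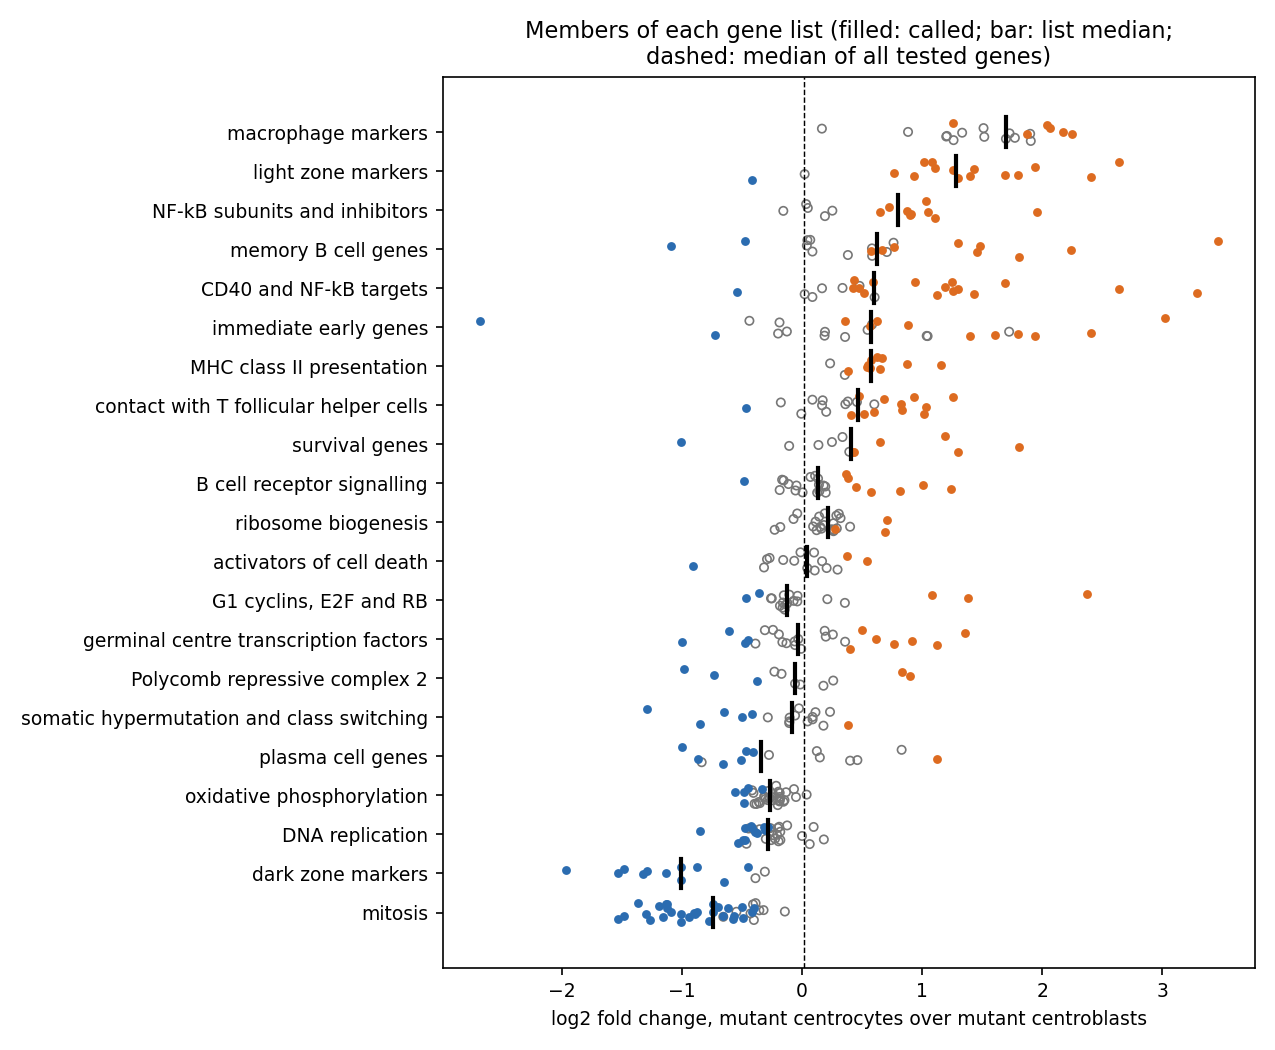
Log2 fold change of mutant centrocytes over mutant centroblasts (horizontal axis) for the tested members of 21 gene lists (rows), each point a gene, filled orange or blue where called and open where not. The black bar is the list's median and the dashed line the median of all tested genes (0.02); mitosis and dark zone genes lie to the left, light zone, NF-kB and MHC class II genes to the right.

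Transcription factors of the germinal centre split by direction, with 7 of 25 higher and 4 lower, against 8.92% and 7.07% of all tested genes. The lower count was 2 without any of centroblast libraries 1 and 4 or centrocyte libraries 1, 2 and 3. Lmo2, a scaffold of DNA-binding complexes, was at 25.7, 25.6, 34.5 and 34.9 CPM in centroblasts and 68.5, 82.1, 73.3 and 85.3 CPM in centrocytes (1.36 ± 0.12). Id2, an inhibitor of E proteins, rose by 0.92 ± 0.18 and Pou2f2 (Oct2) by 0.62 ± 0.13. Pou2af1 (OCA-B), the coactivator of Oct factors, was at 2173, 1771, 2361 and 2238 CPM in centroblasts and 1076, 1118, 878 and 1199 CPM in centrocytes, without overlap (−1.0 ± 0.12, adjusted p = 1.26e-05). Bach2, a repressor of plasma cell genes, fell by 0.48 ± 0.14, with overlap between the groups and a call lost without centroblast library 1 or 4 or centrocyte library 1, 2 or 3, and with the offset (adjusted p = 0.0763). Bcl6, the factor that germinal centre B cells depend on, and Pax5, the factor of B cell identity, were not called (−0.03 ± 0.12 and −0.06 ± 0.15, adjusted p = 0.892 and 0.836).

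Genes of PRC2 itself were called in both directions. Of 11 tested members 2 were higher, 3 lower and 6 not called, against 8.92% higher and 7.07% lower of all tested genes. Ezh2 (chr6:47530139-47595341) was at 239.6, 256, 209.8 and 183 CPM in centroblasts and 199, 179, 205 and 174 CPM in centrocytes, which overlapped (−0.23 ± 0.12, adjusted p = 0.207). The core subunits Eed and Suz12 were not called (−0.17 ± 0.14 and −0.02 ± 0.23). Mtf2, a Polycomb-like subunit that guides the complex to CpG islands, was at 244, 258, 233 and 174 CPM in centroblasts and 130.2, 112, 115 and 103 CPM in centrocytes (−0.98 ± 0.19, adjusted p = 0.00184). Phf19, another Polycomb-like subunit, was at 261, 226, 216 and 261 CPM against 159, 163, 122 and 136 CPM (−0.73 ± 0.10). Phf1, the remaining Polycomb-like subunit, went the other way, at 22.2, 21.4, 20.2 and 21.8 CPM against 41.5, 48, 35.5 and 34.9 CPM (0.90 ± 0.13), as did Jarid2, an accessory subunit of a separate form of the complex, at 47.7, 31.9, 45 and 32 CPM against 76.4, 72.6, 61.5 and 67.9 CPM (0.83 ± 0.13). None of these 4 genes overlapped between the cell types. Rbbp4, a histone-binding subunit shared with other complexes, was lower (−0.38 ± 0.12, adjusted p = 0.0347), a call lost without centroblast library 3 or 4 or centrocyte library 1, 2 or 3.

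Fate genes were mixed. Memory B cell genes were higher in 9 of 20 cases and lower in 2, against 8.92% and 7.07% of all tested genes. The lower ones include Bach2, and the median was 0.62. Hhex, a homeobox factor of memory B cells, was at 4.51, 5.45, 8.08 and 6.09 CPM in centroblasts and 22, 33.1, 26.3 and 33 CPM in centrocytes (2.24 ± 0.18, adjusted p = 2.34e-07). Bcl2, which blocks apoptosis (chr1:106538178-106714274), was at 3.54, 3.15, 4.97 and 4.00 CPM against 12.1, 13.3, 11.5 and 18 CPM, 3.50-fold higher (1.81 ± 0.19). Klf2, a factor of recirculating lymphocytes, rose by 1.48 ± 0.25 and Zeb2 by 1.45 ± 0.24, while Nt5e (CD73), an ectonucleotidase of memory cells, fell by 1.09 ± 0.13. Plasma cell genes were lower in 6 of 14 cases and higher in 1, which was Irf4, against 7.07% and 8.92% of all tested genes. On a separate list of 10 plasma cell markers 4 were lower and 2 higher. Derl3, of the latter list, was called higher, at 21.8, 19.2, 23.7 and 24.7 CPM in centroblasts and 52.4, 45.3, 46.3 and 45.5 CPM in centrocytes. Jchain, which joins secreted antibodies, was lower (−0.86 ± 0.15), as were Mzb1 (−0.66 ± 0.13), a chaperone of antibody secretion, and Slamf7 (−0.51 ± 0.09). Prdm1 (Blimp-1), the factor of plasma cells, was at 2.78, 1.97, 3.39 and 3.42 CPM in centroblasts and 6.19, 3.52, 4.42 and 6.42 CPM in centrocytes; it was not called (adjusted p = 0.138), except with the replicate block (0.00419). Xbp1, the secretory factor, was lower by 0.41 ± 0.14 (adjusted p = 0.047), a call lost in 7 of the 8 fits without 1 mutant library.

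Survival genes were higher in 6 of 12 cases and lower in 1, against 8.92% and 7.07% of all tested genes. Beside Bcl2, the NF-kB target Bcl2a1b was at 26.5, 37.9, 26.7 and 26.8 CPM in centroblasts and 66.1, 64.8, 96.3 and 63.5 CPM in centrocytes (1.30 ± 0.19), with centroblast library 2 and centrocyte library 3 above their groups; reads may be split with its near-identical copies, of which Bcl2a1d rose by 1.19 ± 0.21. Birc3, an inhibitor of apoptosis, rose by 0.43 ± 0.08, and Mcl1, the survival factor of germinal centre B cells, was not called (−0.11 ± 0.15, adjusted p = 0.68). Pim1, a survival kinase, was at 225, 185, 204 and 217 CPM in centroblasts and 114, 108, 82.4 and 109 CPM in centrocytes and so fell (−1.01 ± 0.12, adjusted p = 1.51e-05). Activators of cell death were higher in 2 of 15 cases and lower in 1, near the 8.92% and 7.07% of all tested genes. The lower one was Bcl2l11 (BIM), at 53.6, 44.7, 69.6 and 63.6 CPM in centroblasts and 32, 30.6, 24.5 and 35.9 CPM in centrocytes (−0.91 ± 0.15). Bid, another BH3 protein, rose by 0.38 ± 0.08. Bmf rose by 0.54 ± 0.15 with overlap, a call lost without centroblast library 3 or centrocyte library 1, 2 or 4. Of 19 targets of p53, 4 rose, against 8.92% of all tested genes. Among them were Ddit4 (1.69 ± 0.17), an inhibitor of mTORC1, and Plk3 (1.27 ± 0.17), a stress kinase.

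Metabolic lists are read against the 8.92% of all tested genes that were higher and the 7.07% that were lower. Of 36 oxidative phosphorylation genes 5 were lower and none was higher, with a median of −0.27; Atp5a1, a subunit of ATP synthase, fell by 0.49 ± 0.11 and Sdhd, a subunit of complex II, by 0.45 ± 0.08. Sdhb overlapped between the groups (−0.56 ± 0.16), with centrocyte library 3 above its group at 266 CPM, and its call was lost without centroblast library 2 or centrocyte library 1, 2 or 4. The count of 5 moved with single libraries: it was 3 without centrocyte library 1, 3 without centrocyte library 2 and 14 without centrocyte library 3. It was 9 without centrocyte libraries 3 and 4, 8 in DESeq2 and 12 under the offset. Of 18 glycolysis genes 1 was higher and 1 lower; the first call was lost without any of centroblast libraries 2 and 3 or centrocyte libraries 1, 2 and 4, and the second without any of centroblast libraries 3 and 4 or centrocyte libraries 1 and 2. Of 24 ribosome biogenesis genes 3 were higher, led by Gnl3 (0.71 ± 0.15) and Polr1b (0.69 ± 0.10); of 19 cholesterol synthesis genes 1 was higher, and of 19 interferon response genes edgeR called none (2 higher and 1 lower with the replicate block). Genes that position B cells were higher in 3 of 18 cases and lower in 2 (1 without centroblast library 1 or 3 or centrocyte library 3): beside Ccr6 and Cxcr4, Cxcr5, the receptor for the follicle chemokine, rose by 0.50 ± 0.11, and Gpr183, the oxysterol receptor EBI2, rose by 0.67 ± 0.15, a call lost without centrocyte libraries 3 and 4 (adjusted p = 0.096). S1pr2, the receptor that confines cells to the germinal centre, was not called (−0.26 ± 0.12, adjusted p = 0.152). With the replicate block 6 of the 18 were higher.

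Markers of other cells moved with the cell type in some libraries. Of 19 tested macrophage markers 6 were called higher in centrocytes, against 8.92% of all tested genes, and none lower. Their median was 1.70, and 16 were higher with the replicate block. Without 1 mutant library the count ran from 1 to 14. The groups overlapped for all but Cd68, a lysosomal protein: C1qb, a complement component, was at 2.20, 1.34, 6.75 and 7.14 CPM in centroblasts and 6.19, 2.71, 33.3 and 29.5 CPM in centrocytes, and Vcam1, an adhesion molecule, at 3.25, 2.99, 14.6 and 12.2 CPM against 10.9, 3.57, 45.4 and 49.7 CPM (adjusted p = 0.0911, with the block 0.00337). Both were highest in centrocyte libraries 3 and 4 and next highest in centroblast libraries 3 and 4. The call of C1qb was lost without any of centroblast libraries 1, 2 and 3 or centrocyte libraries 3 and 4. With centrocyte libraries 3 and 4 both left out 1 of the 19 was called, Cd68 (adjusted p = 0.00445), and the median was −0.07; Clec4f, a marker of liver macrophages, had no count in any mutant library. In that fit 10 of 13 dark zone markers, 26 of 38 mitosis genes and 10 of 34 replication genes were lower. In the same fit 13 of 16 light zone markers, 8 of 24 immediate early genes, 8 of 14 NF-kB subunits and inhibitors and 14 of 22 CD40 and NF-kB targets were higher. Naive follicular B cell markers were higher in 7 of 17 cases, against 8.92% of all tested genes, and in 12 with the block. They were lower in 2 (0 or 1 without any 1 mutant library), against 7.07%, with a median of 0.67. Fcer2a (CD23), a low-affinity receptor for IgE, was at 129, 133, 145 and 171 CPM in centroblasts and 494, 609.9, 439 and 578 CPM in centrocytes (1.88 ± 0.14, adjusted p = 1.4e-07), and Ighd, the constant region of IgD, was at 104, 105, 152 and 133 CPM against 237, 248, 293 and 276 CPM (1.10 ± 0.15). Ccr7, a homing receptor of naive cells, was not called (0.96 ± 0.36, adjusted p = 0.0811), except with the block (0.00144). The part of naive cells in the rises of Bcl2, Klf2, Cd38 and Gpr183, which the naive and memory lists share, was not tested. T cell markers summed to 176 to 205 CPM in centroblasts and 297 to 335 CPM in centrocytes, nearly all of it Lck (0.69 ± 0.14), which B cells also express. Of 8 tested T cell markers 2 were higher, Lck and Trac, against 8.92% of all tested genes, with a median of 0.71. Trac, the constant region of the T cell receptor alpha chain, was at 0.472, 0.383, 0.687 and 0.634 CPM in centroblasts and 1.57, 0.752, 1.38 and 1.34 CPM in centrocytes (1.2 ± 0.36, adjusted p = 0.0281), a call lost without any of centroblast libraries 1 and 2 or centrocyte libraries 1, 3 and 4. The CD3 chain Cd3d was at 0.184, 0.192, 0.206 and 0.248 CPM in centroblasts and 0.522, 0.510, 0.603 and 0.605 CPM in centrocytes, and Cd3e did not exceed 0.276 CPM. The mean log2 level of the 8 markers was highest in centrocyte libraries 3 and 4, at 0.58 and 0.69 above the mean of the 8 libraries. The part of T cells in these results was not tested. Of the neutrophil markers none reached the level for testing.

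**Figure D4:**
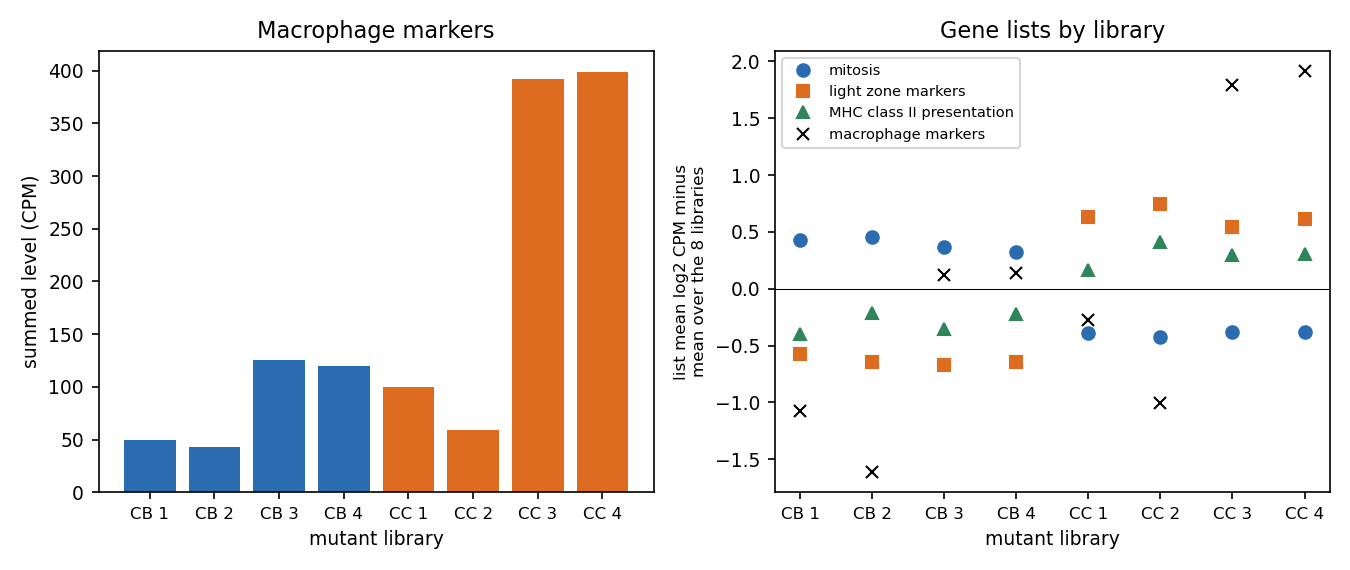
Left, summed CPM of 20 macrophage markers in each mutant library, as bars from 0; right, mean log2 CPM of 4 gene lists in each library relative to the mean of the 8 libraries. Centrocyte libraries 3 and 4 hold 392 and 399 CPM of macrophage markers, while centrocyte libraries 1 to 4 lie at −0.39, −0.42, −0.38 and −0.38 for mitosis, at 0.63, 0.74, 0.55 and 0.62 for light zone markers and at 0.17, 0.42, 0.30 and 0.31 for MHC class II.

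The same comparison in controls, which share no library with the mutants, asks whether the mutant allele changes the difference between zones. In controls 2270 genes were higher in centrocytes (14.9%) and 1960 lower (12.9%). Of the 2438 mutant calls, 2046 were called in the same direction in controls, 392 were not called there and none was called in the opposite direction; 2420 had the same sign. The interaction of genotype and cell type, which tests the difference itself, called 0 of 15240 genes in edgeR (0%), with 429 at an unadjusted p below 0.05. DESeq2 called 1. The lower number of calls in mutants is therefore not shown for any gene by edgeR to be a smaller change. Medians in mutants and controls were −1.01 and −0.99 for dark zone markers, 1.28 and 1.37 for light zone markers, −0.74 and −0.63 for mitosis, −0.29 and −0.44 for replication, and 0.57 and 0.91 for immediate early genes. For oxidative phosphorylation 5 members were lower in mutants and 26 in controls, but none of the 36 had an interaction p below 0.05 even unadjusted.

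**Figure D5:**
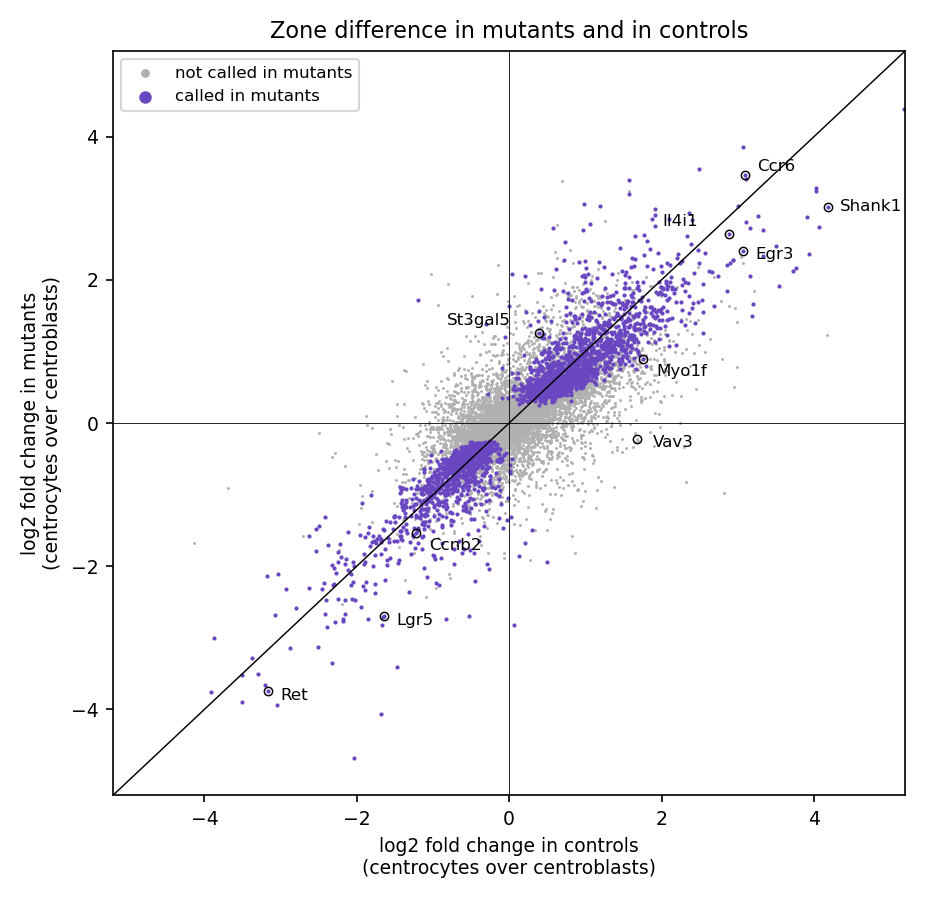
Log2 fold change of centrocytes over centroblasts in mutants (vertical axis) against that in controls (horizontal axis), one point per tested gene, purple where called in mutants, with the line of equal change; 2 genes lie outside the axes. Ccr6, Il4i1, Ret and Ccnb2 lie near the line, while Vav3, Myo1f, Shank1 and Lgr5 lie off it, and none of these interactions passed the adjusted threshold in edgeR.

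The gene that DESeq2 called was Vav3, a guanine nucleotide exchange factor (adjusted p = 0.0324; edgeR unadjusted p = 0.00011, adjusted p = 0.999). It was at 0.708, 1.48, 1.74 and 1.35 CPM in mutant centroblasts and 1.28, 1.05, 0.718 and 1.47 CPM in mutant centrocytes, and at 1.30, 0.878, 0.965 and 0.903 CPM in control centroblasts and 2.97, 3.55, 3.36 and 3.04 CPM in control centrocytes. Control centrocytes were thus above the other 3 groups in every library, and the zone difference was −0.22 ± 0.27 in mutants and 1.67 ± 0.27 in controls. Myo1f, a myosin of leukocytes, was at 25.4, 28.7, 28 and 26.3 CPM in mutant centroblasts against 48.1, 59.4, 42.3 and 51.3 CPM in mutant centrocytes. In controls it was at 6.32, 5.96, 7.47 and 7.71 CPM in centroblasts against 22.1, 18.4, 27.3 and 25.4 CPM in centrocytes, so it rose in both genotypes (0.89 ± 0.13 and 1.76 ± 0.14), with an interaction of −0.87 ± 0.19. Lgr5 was at 31.6, 30.8, 26.4 and 24.7 CPM in control centroblasts and 6.98, 10.3, 9.84 and 9.16 CPM in control centrocytes, above the mutant values in both cell types, and fell by 2.70 in mutants and by 1.65 in controls, with an interaction of −1.05 ± 0.24. Others with small p were Igkv8-16, an antibody variable segment whose reads may be shared with its relatives (0.31 ± 0.22 and −1.07 ± 0.23 in mutants and controls), Vat1 (0.41 ± 0.12 and −0.27 ± 0.12), whose mutant change was 0.15 under the offset (adjusted p = 0.463) and lost its call without any of centroblast libraries 3 and 4 or centrocyte libraries 1, 2 and 4, and BC022960 and Gm9949, which stayed below 1 CPM in all 16 libraries. Among the zone genes described above the interaction was −0.31 ± 0.15 for Ccnb2, 0.20 ± 0.12 for Polh, 0.08 ± 0.15 for Cd83 and 0.37 ± 0.31 for Ccr6, none of them called; Egr3 had −0.66 ± 0.30 (unadjusted p = 0.0411, adjusted p = 0.999).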

How the data were processed

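RNA from sorted cells was sequenced (TruSeq, per the labels' protocols). The authors deposited counts of reads per gene, made with Trim Galore, cutadapt, STAR 2.5.3a and featureCounts 1.4.5-p1 on mm10, per the submitters' processing notes; strand and annotation settings are not given in the sources used here. Groups came from the labels. Genes kept by filterByExpr (15240) were fitted with the quasi-likelihood test of edgeR 4.0.16 in R 4.3.3, with TMM factors and 1 mean per group over all 16 libraries (12 residual degrees of freedom), and Benjamini-Hochberg adjustment over all tested genes. The code was tested on simulated data. DESeq2 1.42.0, other scalings and filters, a replicate block, left-out libraries and an offset for GC content and length were alternatives, the offset and the split by libraries 1 and 2 or 3 and 4 being added after seeing the data.

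Libraries of the same number deviated together in mutants (correlations 0.735, 0.318, 0.437 and 0.549). The replicate block, an alternative fit, took the numbers as pairs in both genotypes, and the main fit did not. No label states a shared animal or day, mutant number 3 matched number 4 better (0.502), and in controls the correlations were 0.0418, 0.690, 0.742 and 0.247, with number 1 matching number 2 better (0.657) and number 4 matching number 3 (0.420). Named genes were the 15 largest rises and falls (mean log2 CPM of at least 2, no overlap), from each list up to 4 members called in a direction and 2 not called, the 8 smallest interaction p, gate genes, Ezh2, the highest markers of each cell type and, for promoters, the 3 called mitosis genes of largest change whose window holds TTTGAA, by which Cdc20 is named. Anln, Aurkb, Bcl6, Ccl22, Ccr7, Ciita, Ebi3, Eed, Fos, Icosl, Jun, Klf2, Lig4, Nfkb2, Rel, Rela, Relb, Suz12 and Tubb5 were added after their values were seen. The members and lists were chosen with earlier results of these data known. Some items of these lists are not reported here.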

Additional observations from a re-analysis of the deposited data

Results flagged for a closer look

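Of 322 groups of 4 libraries examined for a library far from the rest of its group (the gap over the group's range, against Dixon's critical value), 18 had one, and chance flags about 1 in 20. In mutant centrocytes, library 3 stood below its group for Pim1 (82.4 CPM) and Bhlhe40 (28.0 CPM), and apart from it for Bcl2a1b (96.3 CPM), Btla (510.3 CPM), S1pr2 (344 CPM) and Slamf6 (234 CPM). Library 1 of the centrocytes stood apart for Il2rg (245 CPM), Lck (326 CPM) and the summed T cell markers (335 CPM), most of which is Lck, and library 4 for the summed neutrophil markers (0.237 CPM). In mutant centroblasts, library 2 stood apart for Bcl2a1b (37.9 CPM), Bcl2a1d (6.22 CPM) and Foxo1 (181 CPM), library 1 for Bcl6 (568 CPM), and library 4 for Apex2 (40.7 CPM), Lig4 (28.4 CPM), Syk (1553 CPM) and the summed neutrophil markers (3.44 CPM).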

How the results depend on the processing

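With a minimum fold of 1.5 in the test, the mutant comparison had 268 genes higher and 190 lower, and the control comparison 528 and 223. Without that minimum, the fit within libraries 1 and 2 had 792 genes higher and 561 lower in mutants and 1205 and 802 in controls. The fit within libraries 3 and 4 had 619 and 441 in mutants and 2013 and 1603 in controls. Its interaction called 0 genes, with 1702 of 15487 at an unadjusted p below 0.05 in edgeR. The main fit had 429 of 15240. Fits within libraries 1 and 2 or 3 and 4 use fewer samples, and the cause of their differences was not tested. The GC and length offset gave 1996 lower genes in mutants and 3136 in controls; the cause was not tested. Leaving out 1 library at a time gave 1022 to 1622 higher and 769 to 1288 lower genes in mutants, 1743 to 2332 and 1350 to 2069 in controls, and 0 interactions throughout. The interaction had 1 lower gene in DESeq2 (Vav3). With the replicate block the mutant comparison had 1637 higher and 1122 lower genes, and 2275 of the 2438 calls were made in both. Among the named genes the block ended the calls of Hspa5, Nop56 and Vpreb3 (adjusted p = 0.0501, 0.0626 and 0.0932) and made those of Plek, Pdcd1 and Tnfrsf13b (0.0325, 0.0378 and 0.0140), beside those given with the results, and it changed no other call of a gene that the text names. Without centrocyte libraries 3 and 4, 35 named calls were lost. Beside those given with the results, they include Aurkb, Bach2, Ccl22, Ccnd3, Foxo1, Trac, Vat1 and Xbp1. Leaving out 1 mutant library lost 19 to 29 calls. No named gene changed direction while called, but the balance of higher and lower calls turned under the offset. Depth limits what can be said of genes below 1 CPM, such as Ccl22.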

Other observations

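Genes induced through ATF4, the transcription factor of amino acid and stress responses, were looked at after the fall of Atf3 was seen, so they were chosen on these values. Trib3, a pseudokinase that feeds back on ATF4, was at 3.67, 4.33, 3.59 and 4.52 CPM in mutant centroblast libraries 1 to 4 and 0.653, 1.69, 1.32 and 1.68 CPM in mutant centrocyte libraries 1 to 4 (−1.59 ± 0.28, adjusted p = 0.000797 in edgeR). Chac1, which degrades glutathione, was at 2.18, 2.11, 1.81 and 2.01 and 0.966, 0.430, 0.402 and 0.974 CPM (−1.54 ± 0.32, adjusted p = 0.00284). Asns, asparagine synthetase, fell by 0.64 ± 0.18 and Psat1, of serine synthesis, by 0.46 ± 0.11. Atf4 itself fell by 0.42 ± 0.09, a call lost without centrocyte libraries 3 and 4 (adjusted p = 0.0668), and the Asns call was lost without any of centroblast libraries 3 and 4 or centrocyte libraries 1 and 2. Ddit3 (CHOP), another gene of the response, was not called (0.37 ± 0.17, adjusted p = 0.149). In controls the changes were −1.14 ± 0.28 for Trib3, −1.34 ± 0.31 for Chac1, −0.53 ± 0.18 for Asns and 0.36 ± 0.17 for Ddit3, and no interaction was called.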
